A study of Mus musculus with 12 samples.

Results

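The splicing factor genes described here are the protein-coding RefSeq genes whose symbols start with Srsf, Hnrnp, Sf3a, Sf3b or Snrp. There were 53 of them among 21887 protein-coding genes on the mouse autosomes, X and Y: 11 Srsf genes, 21 Hnrnp genes, 9 Sf3a and Sf3b genes and 12 Snrp genes. The rule used their symbols and no measured value. Their positions were set against R-loop peaks of HEPA1-6, a mouse hepatoma cell line, and of liver from C57/Bl6 mice.

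R-loops are structures in which a nascent RNA pairs with its DNA template and leaves the other DNA strand unpaired. They were pulled down with S9.6, which binds RNA-DNA hybrids, in a series on genome editing with adeno-associated virus vectors. Splicing removes introns from pre-mRNA. SR proteins (Srsf genes) mostly mark exons for inclusion, and heterogeneous nuclear ribonucleoproteins (Hnrnp genes) coat nascent RNA and often oppose them. The Snrp genes encode the Sm proteins, which form the core of the small nuclear ribonucleoproteins (snRNPs) that recognise splice sites, and some other snRNP proteins. The SF3a and SF3b complexes belong to the U2 snRNP. Most genes of these proteins are transcribed in nearly all cells, and loss of the SR protein SRSF1 is known to raise R-loops in vertebrate cells.

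Per the labels, 12 libraries fell into 6 groups of 2. For each source there was an S9.6 immunoprecipitate, an S9.6 immunoprecipitate treated with RNase H1, which degrades the RNA of a hybrid, and an input. All groups carried the genotype WT, were labelled with no treatment and with the cell type Hepatocyte, although a liver also holds other cells and HEPA1-6 is a tumour line. The values below come from 1 deposited peak list per source, made from a merged immunoprecipitate and an input as the peak names have it. Single libraries and the effect of RNase H1 were not analysed here. With no replicate list there is no spread between replicates, no difference between the sources was tested, and the sequencing depth behind a peak is unknown.

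The HEPA1-6 list held 28717 peaks with a median width of 1091 bp and the liver list 14908 peaks with a median width of 881 bp. Every peak carried the authors' own score, a whole number of at least 10 with a median of 21 in HEPA1-6 and 22 in liver. Its scale is not given in the sources used here, so a score was read only by the share of peaks of the same list that scored higher. The labelled tissue was checked against marker genes, where a gene held a peak if any peak overlapped it or the 1 kb flanking it on either side. Of 33 hepatocyte genes, 9 (27.3%) were marked in HEPA1-6 and 7 (21.2%) in liver, against 42.0% and 29.7% of all protein-coding genes. The hepatocyte genes were thus marked less often than protein-coding genes at large in both lists. Alb held a peak in both lists, and Ttr, Apoa1, Apoc3 and Cps1 held one in neither. Among 16 cell cycle genes the counts were 15 and 13, and among 15 genes of immune, endothelial, stellate and bile duct cells only Cd68 held a peak, in both lists. The list labelled liver thus held peaks at a larger share of cell cycle genes than of hepatocyte genes, and the part of this in the values below was not tested.

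The 5 start regions below show the sequence that lay under peaks at these genes. They are the 250 bases before the RefSeq start of splicing factor genes chosen for a peak over that start in both lists and a window outside the gene boundary, taken in the order of their top scores in both lists. Hnrnpf ranked among the first but was not shown, since the start used for its window lay under no peak. Of its 4 listed starts, 3 lay under peaks in both lists. All 250 bases of each window were under a peak in both lists, which the choice largely fixed. Capitals mark runs of 4 or more G on the strand of the gene. RNA rich in G pairs stably with DNA, but these bases lie before the listed start. A transcript from that start does not copy them. Sequences are from RefSeq (GRCm38.p6), and the windows are chr13:58128557-58128806 (minus strand) for Hnrnpa0, chr2:162931258-162931507 (plus strand) for Srsf6, chr1:133610281-133610530 (minus strand) for Snrpe, chr17:29032410-29032659 (plus strand) for Srsf3 and chr11:51606882-51607131 (minus strand) for Hnrnpab.
Hnrnpa0: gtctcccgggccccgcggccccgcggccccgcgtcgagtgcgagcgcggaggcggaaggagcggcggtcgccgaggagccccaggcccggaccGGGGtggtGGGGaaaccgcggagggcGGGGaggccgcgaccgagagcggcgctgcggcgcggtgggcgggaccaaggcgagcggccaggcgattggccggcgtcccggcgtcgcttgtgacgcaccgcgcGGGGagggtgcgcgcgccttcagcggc
Srsf6: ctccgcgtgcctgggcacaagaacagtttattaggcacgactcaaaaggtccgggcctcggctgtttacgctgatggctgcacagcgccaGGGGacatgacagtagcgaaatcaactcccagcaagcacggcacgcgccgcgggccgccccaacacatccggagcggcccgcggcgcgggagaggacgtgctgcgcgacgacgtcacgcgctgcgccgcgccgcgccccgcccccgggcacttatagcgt
Snrpe: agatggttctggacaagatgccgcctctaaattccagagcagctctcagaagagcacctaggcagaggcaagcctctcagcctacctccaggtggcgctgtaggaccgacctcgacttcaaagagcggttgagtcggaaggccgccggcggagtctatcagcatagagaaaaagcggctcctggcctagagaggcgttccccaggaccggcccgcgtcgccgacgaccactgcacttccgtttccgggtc
Srsf3: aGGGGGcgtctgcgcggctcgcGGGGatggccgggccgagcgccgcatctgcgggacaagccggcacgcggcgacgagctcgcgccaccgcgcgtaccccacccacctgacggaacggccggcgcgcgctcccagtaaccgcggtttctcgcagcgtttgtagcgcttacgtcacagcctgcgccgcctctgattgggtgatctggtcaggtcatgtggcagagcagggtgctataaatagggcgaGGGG
Hnrnpab: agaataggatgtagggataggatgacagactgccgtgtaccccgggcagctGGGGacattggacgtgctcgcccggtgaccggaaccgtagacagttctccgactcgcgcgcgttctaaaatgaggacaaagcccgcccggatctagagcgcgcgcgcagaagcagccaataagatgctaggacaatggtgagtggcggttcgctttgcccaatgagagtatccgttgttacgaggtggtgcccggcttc

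The 5 windows differed in composition. Hnrnpa0 was 81.2% G and C with 46 CpG dinucleotides and 4 G runs, and Srsf3 was 69.6% with 35 CpG and 3 G runs. Srsf6 reached 68.4% with 35 CpG and 1 G run. Snrpe, at 60.8%, had 19 CpG and no G run, and Hnrnpab, at 58.4%, had 23 CpG and 1 G run. The Snrpe window was thus under peaks in both lists without a run of 4 G on the gene's strand, though it held 1 run of C. These bases do not show the sequence after the start.

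Over all members, the window of 250 bases before to 50 bases after the start was given for 47 of 53. Its median G and C content was 60.0%, against 56.3% over 17492 protein-coding genes, and its median CpG count per 100 bases was 8.0 against 4.33. Genes of any kind with a HEPA1-6 peak over the start had medians of 63.0% and 8.0. The motif GGGG, searched on the gene's strand, occurred in 38 members (80.9%) and in 71.0% of all windows, and CCCC, which is GGGG on the opposite strand, in 41 (87.2%) against 69.2%. All 47 windows held at least 1 of the 2 motifs, as did 87.2% of all windows. The skew of G over C in the 50 bases after the start had a median of 0.0714 in the members and 0.0667 in all genes. Member start regions were thus richer in CpG than the average start, and their G over C skew was close to it.

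Peaks were found at nearly all splicing factor genes. In the HEPA1-6 list 49 of 53 (92.5%, 95% Wilson interval 82.1 to 97.0) held a peak, against 42.0% of all protein-coding genes. In the liver list 44 of 53 (83.0%, 70.8 to 90.8) held one, against 29.7%. These intervals cover counting error over genes only. Each of the 44 members with a liver peak was also marked in HEPA1-6, and 27.8% of the background had peaks in both lists. Another 5 members (9.43%) held a HEPA1-6 peak only, against 14.2% of all genes. None held a liver peak only, a count of 0 that allows up to 6.76% by the same interval, and 1.89% of all genes did.

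The gap to the background was also present among genes of like length. Among the 6329 protein-coding genes within the interquartile range of member lengths (6681 to 22188 bp), 48.0% were marked in HEPA1-6 and 32.9% in liver. Over the full range of member lengths the shares were 42.6% and 29.9%, against the same 49 and 44 of 53 members. Of the 27 members in the narrower range, 27 and 23 (85.2%) were. Many members lie close to a neighbour, so peaks that touched a single protein-coding gene were also counted alone. A peak is said to touch a gene if it overlapped it or the 1 kb flanking it on either side. By that count 40 members (75.5%) held a HEPA1-6 peak, against 32.1% of all genes, and 35 (66.0%) a liver peak, against 22.0%.

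**Figure D1:**
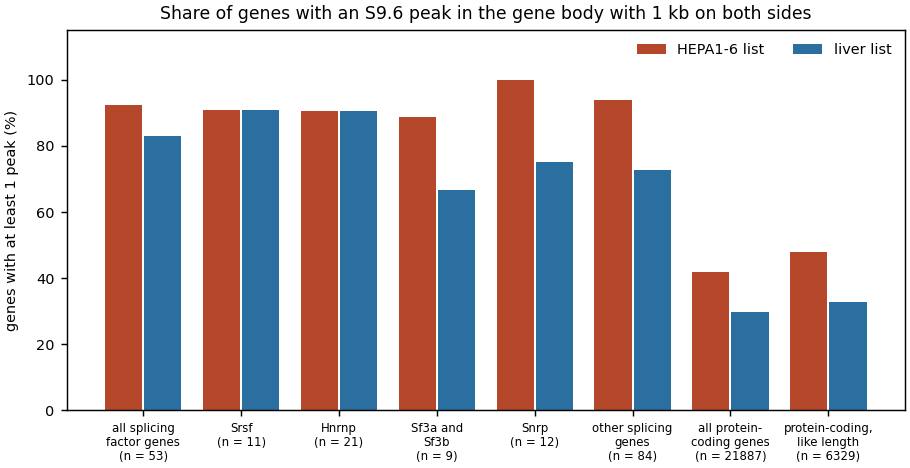
Share of genes with at least 1 S9.6 peak in the gene body with 1 kb on both sides, in percent, in the HEPA1-6 list and the liver list, for the splicing factor genes, their 4 families, other splicing genes, all protein-coding genes and protein-coding genes of like length. Bars start at 0 and each is 1 count from 1 list, so there are no error bars. All 4 families lie above the shares of 42.0% and 29.7% of all protein-coding genes.

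The peaks at these genes were wide and high in rank. Within the highest-scoring 10% of the HEPA1-6 list lay the top peak of 35 members (66.0%), against 12.8% of all genes, and for the liver list the counts were 24 members (45.3%) and 5.79%. These shares include genes without a peak. Among genes with a peak the counts were 35 of 49 members and 2794 of 9191 genes in HEPA1-6. In liver they were 24 of 44 and 1268 of 6491. Of the 84 other splicing genes described below, 48.8% had such a top peak in HEPA1-6 and 23.8% in liver. More than 50% of the gene body was under HEPA1-6 peaks in 28 members (52.8%), against 9.31% of all genes, and under liver peaks in 15 (28.3%), against 3.41%. Among genes of like length these shares were 18 of 27 (66.7%) against 13.7%, and 8 of 27 (29.6%) against 3.87%. Covered members were short: the median length of those over 50% covered in HEPA1-6 was 8506.5 bp and of the other members 17563 bp. The median share covered over all 53 was 59.5% in HEPA1-6 and 23.7% in liver. No member was covered more in the liver list than in the HEPA1-6 list. The HEPA1-6 list held more and wider peaks, and the same comparison was not made over all genes.

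**Figure D2:**
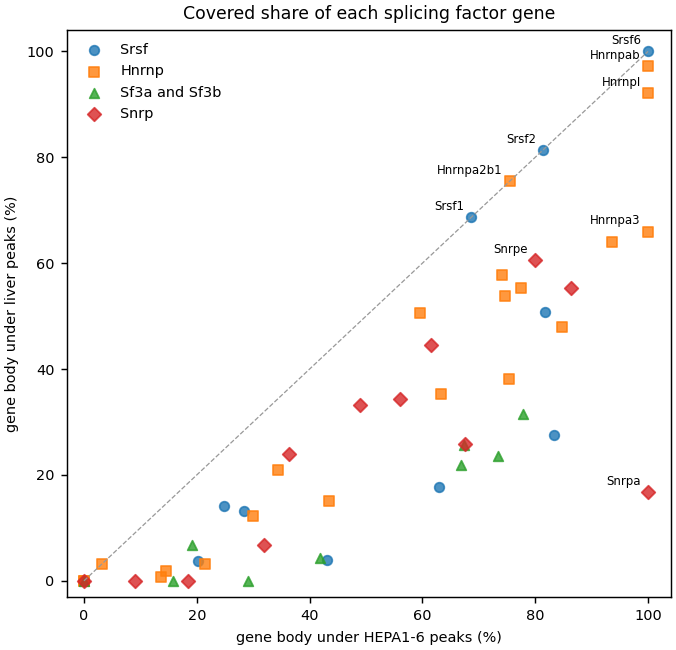
Share of each gene body under HEPA1-6 peaks (x axis, percent) and under liver peaks (y axis, percent) for the 53 splicing factor genes, marked by family. The dashed line marks equal shares. No gene lies above it, Srsf6 sits at 100% on both axes, and Srsf1, Srsf2 and Hnrnpa2b1 lie on the line.

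The Srsf genes encode SR proteins, which bind exonic enhancers through RNA recognition motifs and recruit the splicing machinery through arginine-serine repeats. Of 11, 10 held peaks in both lists, and Srsf12 held none. Their top peaks had a median score of 110.5 in HEPA1-6, with 2.07% of the list scoring higher, and of 64 in liver, with 4.94% scoring higher. Medians over all protein-coding genes with a peak were 34 and 28.

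Srsf6, an SR protein that regulates alternative exons in many tissues, was the most fully covered member. In HEPA1-6 it lay under 1 peak of score 232 at chr2:162930442-162939046, and in liver under 1 peak of score 145 at chr2:162930442-162937675. Both peaks started 1066 bp before the gene's 5′ end at the same base, ran through the 3′ end and covered 100% of the body. Its start sequence is among those shown above.

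Srsf1, among the first SR proteins described and a regulator of constitutive and alternative splicing, had a single peak in each list. The HEPA1-6 peak at chr11:88046803-88051788 scored 176 and the liver peak at chr11:88046804-88051788 scored 79. Only 0.916% and 3.23% of the peaks of each list scored higher. The intervals differed by 1 base, began 304 and 305 bp inside the 5′ boundary and covered 68.7% of the gene in each list. The last part of the gene, towards its 3′ end, held no peak in either list.

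Srsf2 (SC35), an SR protein used as the marker of nuclear speckles, had the same interval in both lists. It was chr11:116850600-116854100, with a score of 124 in HEPA1-6 and 65 in liver and 81.4% of the gene covered. Its peak was assigned to the plus strand in both lists while Srsf2 lies on the minus strand. The peak also touched Mettl23 and Mfsd11. The signal can therefore not be given to Srsf2 alone.

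Srsf3, the smallest SR protein, which also takes part in export of mRNA, was cut up differently by the lists. HEPA1-6 had 2 peaks, chr17:29031746-29038999 with score 118 and chr17:29040791-29046475 with score 51, which covered 83.3% of the gene. Liver had 6 peaks, which covered 27.6%. The highest of them, chr17:29031746-29033105 with score 126, started at the same base as the first HEPA1-6 peak, 914 bp before the 5′ end, and the other 5 scored between 19 and 40. The same start region was thus marked in both, with less of the gene body in liver.

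Srsf7, a close relative of Srsf3 with a zinc knuckle, showed the same contrast. Its top peak was chr17:80203635-80208177 in HEPA1-6, with score 204, and chr17:80206078-80208177 in liver, with score 97. Both began 808 bp before the 5′ end and touched Gemin6, covering the first 51.2% of Srsf7 in HEPA1-6 and the first 17.7% in liver. HEPA1-6 had a second peak of score 15 inside the gene.

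The other SR protein genes with peaks differed in the place of their top peak, but Srsf4, Srsf5, Srsf9 and Srsf10 held peaks at both ends in HEPA1-6. Srsf5 had an identical peak over its 5′ part in both lists (chr12:80944726-80948039, scores 103 and 38), and Srsf10, whose product represses splicing when dephosphorylated, an identical one over its first 12.4% (scores 50 and 25). Srsf4, Srsf9 and Srsf11 had their top peaks towards the 3′ end in HEPA1-6, with scores of 44, 69 and 95. In liver the top peaks of Srsf9 and Srsf11 were again at the 3′ end, with scores of 47 and 63, and that of Srsf4 was inside the gene, with a score of 52.

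The Hnrnp genes encode RNA-binding proteins that package nascent transcripts. Of 21, 19 held peaks in both lists, and Hnrnph2 and Hnrnpa1l2-ps2 held none. The latter is listed as protein-coding but named as a pseudogene. Top peaks had a median score of 88 in HEPA1-6 (3.12% of the list scoring higher) and of 79 in liver (3.23%). The median gene was 63.3% covered in HEPA1-6 and 38.2% covered in liver.

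Hnrnpk, whose product binds C-rich RNA and DNA through KH domains, had the highest HEPA1-6 score of all members. The peak at its 5′ end, chr13:58399177-58404512, scored 375, and 0.244% of the list scored higher. The liver peak there, chr13:58399349-58405038, scored 186, with 0.865% scoring higher. Both lists had 2 further peaks, one inside the gene (scores 57 and 33) and one at its 3′ end (74 and 68). Both sources therefore had the same order of the 3 sites, with the 5′ end first, the 3′ end second and the interior last.

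Hnrnpa0, a short gene of 2678 bp for an A/B-type hnRNP, had the second highest HEPA1-6 score among members. Its HEPA1-6 peak chr13:58126963-58131021 scored 307 and its liver peak chr13:58127200-58129318 scored 196. They covered the first 59.5% and 50.7% of the gene and reached 2465 and 762 bp ahead of it.

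Hnrnpf, for a protein that binds G-rich RNA, had the highest liver score of all members. That peak, chr6:117906040-117909855, scored 483, and 0.376% of the liver list scored higher. HEPA1-6 had 1 peak of 24224 bp, chr6:117906043-117930266, the widest at any member, with score 181. It started 3 bp from the start of the liver peak. Liver had 3 more peaks, of scores 28, 43 and 26, within its span. All began downstream of the outermost 5′ boundary, and 3 of the 4 RefSeq starts listed for Hnrnpf lay under peaks in both lists. The HEPA1-6 peak and the top liver peak also touched 4933440N22Rik, and the HEPA1-6 peak was assigned to the strand opposite to Hnrnpf.

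Hnrnpu, a scaffold protein that binds chromatin and RNA, held peaks along most of its length. The peak at its 5′ end, chr1:178335983-178339063, was identical in both lists, with scores of 257 and 121. HEPA1-6 had 2 more peaks, of scores 144 inside and 162 at the 3′ end, and liver 3 more, of 68 and 41 inside and 120 just past the 3′ end. They covered 84.8% of the gene in HEPA1-6 and 47.9% in liver.

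Hnrnpa1 and Hnrnpa2b1 encode the core A/B proteins, which oppose SR proteins at many exons. The HEPA1-6 peak of Hnrnpa1, chr15:103241608-103249724 with score 79, started 1665 bp inside the gene and ran past its 3′ end. The top liver peak, chr15:103244117-103247369 with score 83, lay over the 3′ end too but was assigned to the strand opposite to Hnrnpa1. A small liver peak of score 21 lay upstream of the gene and touched Cbx5. Hnrnpa2b1 showed the opposite placement. Its peaks chr6:51462793-51474586 (score 125) and chr6:51462793-51472964 (score 66) covered the same 75.5% of the gene from its 5′ end and touched the divergent neighbour Cbx3. A second HEPA1-6 peak of score 26 lay past the 3′ end. In both lists all peaks at Hnrnpa1 and Hnrnpa2b1 also touched another protein-coding gene.

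Hnrnpl, which binds CA repeats, Hnrnpa3 and Hnrnpab were covered to 100% in HEPA1-6, by 1 peak each. For Hnrnpl it was chr7:28808535-28824290 with score 102, and liver had chr7:28808535-28812555 with score 92 and chr7:28813645-28822979 with score 36, which together covered 92.1%. The liver peak of score 92 was assigned to the strand opposite to Hnrnpl. For Hnrnpa3 the HEPA1-6 peak chr2:75656289-75670056 scored 205, and the main liver peak chr2:75656289-75665639 scored 130. With a small peak of score 31 the liver peaks covered 66.0%. For Hnrnpab the peaks were chr11:51584388-51608174 (score 100) and chr11:51600287-51608174 (score 79, 97.2% covered). Those at Hnrnpab were on the plus strand, opposite to the gene, and also touched Phykpl, and in HEPA1-6 Col23a1. In each of the 3 genes the HEPA1-6 and liver peaks started or ended at the same base on the 5′ side.

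At Hnrnpd, for the AU-rich element binding protein AUF1, the liver peak just upstream of the 5′ end (chr5:99979189-99979506) was 318 bp wide and scored 143. The HEPA1-6 peak that ended at the same base scored 83 and was 2603 bp wide. Both were assigned to the strand opposite to Hnrnpd and touched 4930524J08Rik. Its neighbour in name, Hnrnpdl, was 93.6% covered by 1 HEPA1-6 peak of score 201 and 63.9% covered by 2 liver peaks of scores 131 and 44. Hnrnpc, whose product sorts transcripts by length and masks cryptic exons, had 4 HEPA1-6 peaks of scores 16 to 48 and 1 liver peak. That liver peak, chr14:52103480-52104498, scored 71, was identical to the HEPA1-6 peak of score 24 at the 5′ end and touched Rpgrip1. Identical 5′ peaks were also present at Hnrnph3 (scores 67 and 52) and Hnrnpul1 (88 and 44), and at Hnrnph1 an identical peak inside the outer boundaries (45 and 31). The Hnrnph3 interval was assigned to the gene's strand in HEPA1-6 and to the opposite strand in liver.

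Coverage varied among the longer Hnrnp genes. Hnrnpul1 (35108 bp) was 43.4% covered in HEPA1-6 and 15.1% covered in liver, and Hnrnpf (25283 bp) 77.4% and 55.3%. Hnrnpr (35040 bp) was 3.17% covered in both lists, by a peak near its 3′ end of score 59 in HEPA1-6 and 21 in liver. Hnrnpll (32782 bp) was 13.6% and 0.714% covered and had top scores of 45 and 25. Hnrnpm (39226 bp) had 7 HEPA1-6 peaks with a top score of 80, near the 3′ end, and 3 liver peaks with a top score of 26. The shorter Hnrnpul2 (14743 bp) was 34.4% and 20.9% covered, with top scores of 55 and 40.

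The Sf3a and Sf3b genes encode the U2 snRNP complexes that recognise the branch point. Of 9, 8 held a HEPA1-6 peak and 6 a liver peak, and Sf3b5 held none. Their top peaks had a median score of 39.5 in HEPA1-6, with 15.0% of the list scoring higher, and of 29 in liver, with 28.4% scoring higher. Coverage had medians of 41.8% and 6.73%. With a median of 17600 bp they were also the longest of the 4 families. The order of the families by these medians was not tested.

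Sf3b1, the branch-point binding subunit that is mutated in myelodysplastic syndromes, held 6 HEPA1-6 peaks spread from the 5′ to the 3′ end, with scores of 13 to 42. The highest, chr1:55007027-55009942, lay 41.5% to 48.4% into the gene. Liver had 2 peaks, chr1:55007027-55008917 with score 16 and chr1:54991243-54992198 with score 13, each inside a HEPA1-6 peak. Coverage was 19.2% in HEPA1-6 and 6.73% in liver, and no liver peak lay within 1 kb of the 5′ end.

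Sf3b3, a large scaffold subunit, had the most HEPA1-6 peaks of any member, 9 with scores of 13 to 78. The highest, chr8:110818518-110821060, lay inside the gene towards its 3′ end. Liver had a peak of score 40 at the same position, chr8:110818518-110819933, and one of score 54 at the 3′ end. Sf3a2, a zinc finger subunit of SF3a, had HEPA1-6 peaks of scores 78 and 34 and liver peaks of 45 and 24. Its higher peaks, chr10:80782145-80799787 and chr10:80790832-80799787, ended at the same base 1052 bp into the gene and touched Plekhj1 and Dot1l. Sf3b4, for a subunit with 2 RNA recognition motifs, has no strand in the tables used. Its peak at the end with the higher coordinate, chr3:96176437-96179737 in HEPA1-6 and chr3:96176462-96179699 in liver, scored 99 and 31. Sf3a1 was 73.4% covered in HEPA1-6 and 23.7% covered in liver, and Sf3b2 67.3% and 25.6%, with top scores of 37 in HEPA1-6 for each and of 26 and 27 in liver.

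Only HEPA1-6 peaks were found at Sf3a3 and Sf3b6. Sf3a3 had 4, with scores of 18, 34, 10 and 31, covering 29.0% of the gene. Sf3b6, the small subunit that contacts the branch-point adenosine, had 2 inside the gene, with scores of 17 and 20, covering 15.8%. All 6 scored below the 90th percentile of the list, which is 49.

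The Snrp genes encode the Sm ring (Snrpb, Snrpd1, Snrpd2, Snrpd3, Snrpe, Snrpf and Snrpg), the brain-enriched Sm protein Snrpn, the U1 proteins Snrpa and Snrpc and the U2 proteins Snrpa1 and Snrpb2. All 12 were marked in HEPA1-6 and 9 in liver. Top peaks had a median score of 46 in HEPA1-6 and 35 in liver, with 11.1% and 18.9% of the lists scoring higher. Every Sm ring gene held peaks in both lists.

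Snrpe stood out among them. Its 5′ peaks, chr1:133607671-133611444 in HEPA1-6 and chr1:133607671-133611443 in liver, differed by 1 base and scored 224 and 105. The HEPA1-6 peak over the 3′ end scored 142, and liver had 2 peaks there, of 52 and 15. That HEPA1-6 peak was assigned to the strand opposite to Snrpe, and the liver peaks to the gene's strand. Snrpe was 80.0% covered in HEPA1-6 and 60.7% covered in liver. Snrpb, for the B subunit of the ring, had a 5′ peak of score 100 at chr2:130174869-130179997 in HEPA1-6 and one of score 44 at chr2:130175373-130179997 in liver. Past its 3′ end the liver list had a peak of score 45, and HEPA1-6 a peak of score 40 across the end. Snrpd3 had HEPA1-6 peaks of 44 at the 5′ end, 27 inside and 49 at the 3′ end, and liver peaks of 56, 14, 21 and 57 in that order. At Snrpb and Snrpd3 both ends thus scored alike in the liver list, with 1 point between them. The liver 5′ peak of Snrpd3 began 2971 bp before the gene, covered only 1.73% of it and also touched Gucd1. It was assigned to the strand opposite to Snrpd3, so its score cannot be given to Snrpd3 alone.

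Among the remaining ring genes, Snrpd1 had an identical peak just inside the 5′ boundary in both lists (scores 62 and 24), and Snrpd2 was 61.5% and 44.5% covered. Snrpf had 5′ peaks of scores 37 and 30 and was 49.0% and 33.2% covered. Snrpg was the weakest, with top scores of 33 and 13 and coverage of 32.0% and 6.85%. For the U1 protein Snrpa the HEPA1-6 list had 1 peak of score 43 over 100% of the gene, and liver 2 peaks, of scores 24 and 31, over 16.7%. The U2 protein gene Snrpa1 had peaks over the 3′ end in both lists, with scores of 64 in HEPA1-6, its top there, and 29 in liver, where its top peak, of score 35, lay inside the gene.

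The other 3 Snrp genes held a HEPA1-6 peak only. Snrpb2 had peaks of scores 18, at the 5′ end, and 12. Snrpc had 1 peak of score 12 inside the gene, and 92.6% of the list scored higher. Snrpn, an imprinted gene with a RefSeq span of 467683 bp, had 1 peak of 284 bp, chr7:60156387-60156670, with score 23, at 62.8% of its length and on the strand opposite to the gene. Its start held no peak in either list.

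**Figure D3:**
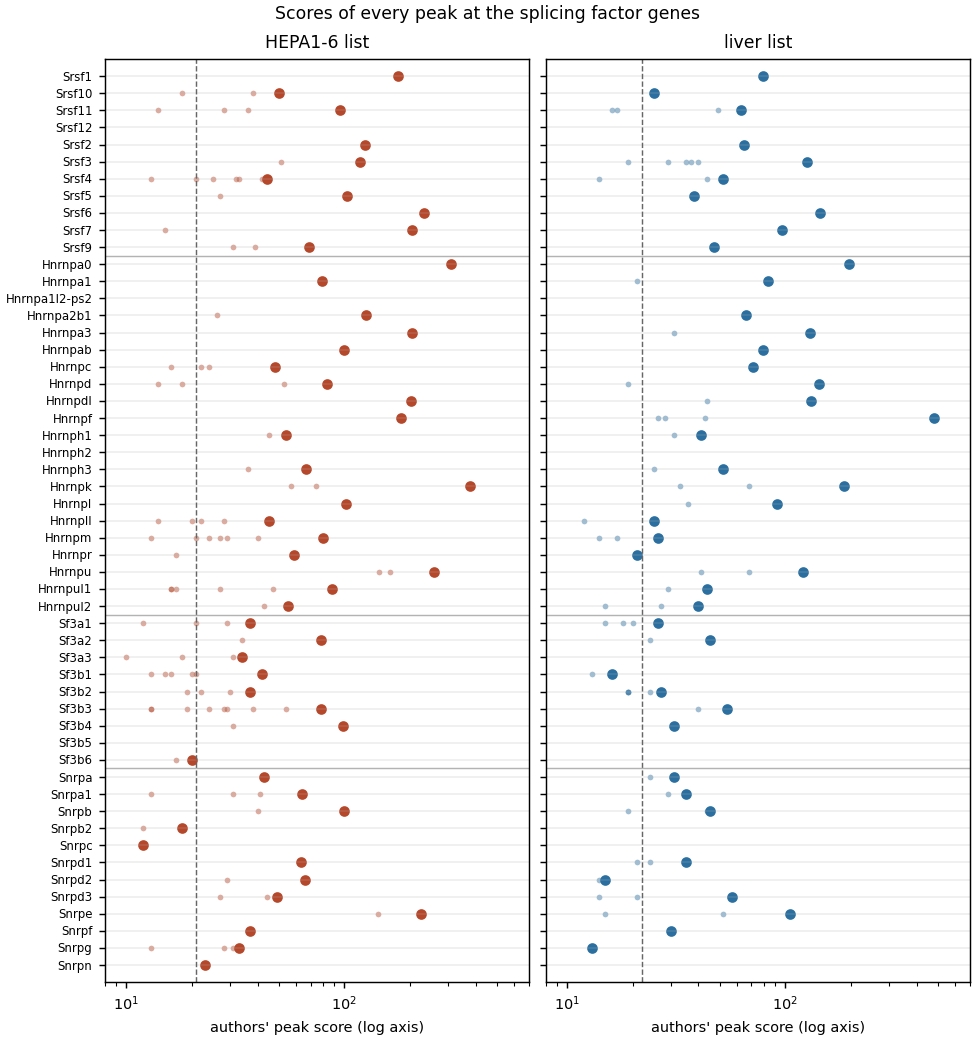
Authors' score of every peak at each splicing factor gene (log axis), with the top peak of a gene as a large point and its other peaks as small points, in the HEPA1-6 list (left) and the liver list (right). The dashed line is the median score of the list, 21 in HEPA1-6 and 22 in liver, and the scores of the panels are not comparable with each other as heights. Hnrnpk leads in HEPA1-6 at 375 and Hnrnpf in liver at 483.

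Within the genes, most members had a peak at 1 end or at both. Strand was known for 51 members. A peak within 1 kb of the 5′ boundary was present in 41 (80.4%) in HEPA1-6, against 26.8% of all genes with a strand, and in 31 (60.8%) in liver, against 18.2%. Among genes that held a peak at all, the shares were 41 of 48 (85.4%) against 57.8%, and 31 of 43 (72.1%) against 55.6%. For the 3′ boundary they were 37 of 51 (72.5%) against 25.7% in HEPA1-6, and 25 of 51 (49.0%) against 12.7% in liver. Restricted to genes with a peak, 3′ shares were 37 of 48 (77.1%) against 55.4% and 25 of 43 (58.1%) against 38.8%. Both ends were marked in 33 members (64.7%) in HEPA1-6, against 15.5% of all genes with a strand, and in 17 (33.3%) in liver, against 6.47%. Marked ends were also common among the 80 other splicing genes with a strand, described below. Their 5′ end was marked in 66.2% in HEPA1-6 and 46.2% in liver, and their 3′ end in 66.2% and 31.2%. Of the 16 cell cycle genes, the 5′ end was marked in 75% and 62.5%, and the 3′ end in 68.8% and 37.5%. Differences of the members from these genes were not tested.

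By family, the 5′ end was marked in 9 of 11 Srsf, 16 of 21 Hnrnp, 6 of 7 Sf3a and Sf3b and 10 of 12 Snrp genes in HEPA1-6. In liver the counts were 8, 15, 2 and 6. The 4 Snrp genes with a marked 5′ end in HEPA1-6 but not in liver were Snrpa, Snrpa1, Snrpb2 and Snrpg. Differences between families were not tested.

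Single bases at the boundaries gave the same picture. The 5′ boundary itself was under a HEPA1-6 peak in 64.7% of members, against 18.8% of all genes and 21.4% of genes of like length, and under a liver peak in 47.1%, against 11.5% and 12.9%. At the 3′ boundary the shares were 52.9% against 16.2% and 21.4% in HEPA1-6, and 21.6% against 6.90% and 9.31% in liver. At 5 kb upstream of the 5′ boundary, 3 members were under a peak in each list (5.88%), against 5.60% of all genes in HEPA1-6 and 2.23% in liver. In HEPA1-6 the member share 5 kb upstream was thus close to that of all genes.

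**Figure D4:**
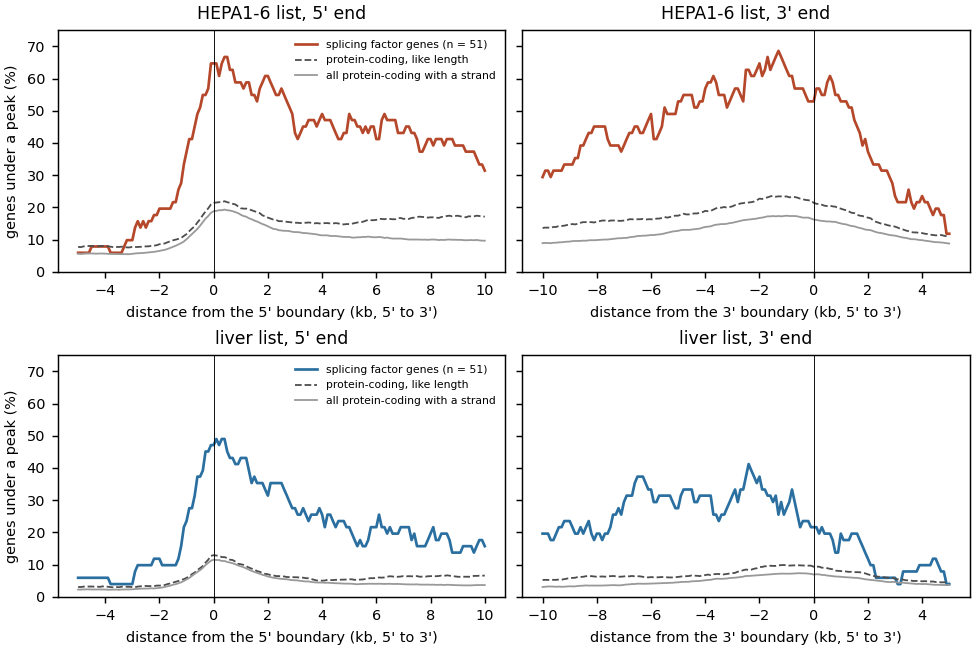
Share of genes under a peak (percent) at each distance in kb from the 5′ boundary (left) and from the 3′ boundary (right), in the HEPA1-6 list (top) and the liver list (bottom), for the 51 splicing factor genes with a strand, protein-coding genes of like length and all protein-coding genes with a strand. The member line reaches 64.7% at the 5′ boundary in HEPA1-6 and 47.1% in liver.

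The top peak of a member lay at the 5′ end in 19 of 48 members in HEPA1-6, at the 3′ end in 12, over both in 7 and inside in 10. In liver these counts were 20, 8, 3 and 12 of 43, where Srsf10 is among the 20 although its 5′ and 3′ peaks tied at a score of 25. No like count was made over all protein-coding genes, so this placement is not shown to be a trait of the members. Members with a peak but none at the 5′ boundary were Hnrnpa1, Hnrnpf, Hnrnph1, Sf3b6, Snrpc, Snrpn and Srsf11 in HEPA1-6. In liver they were Hnrnpf, Hnrnph1, Hnrnpm, Hnrnpr, Sf3a1, Sf3b1, Sf3b3, Snrpa, Snrpa1, Snrpg, Srsf11 and Srsf9. The boundary is the outermost RefSeq start, and other starts can lie inside it: all 5 listed starts of Hnrnph1 and 1 of 2 of Srsf11 were under peaks in both lists.

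**Figure D5:**
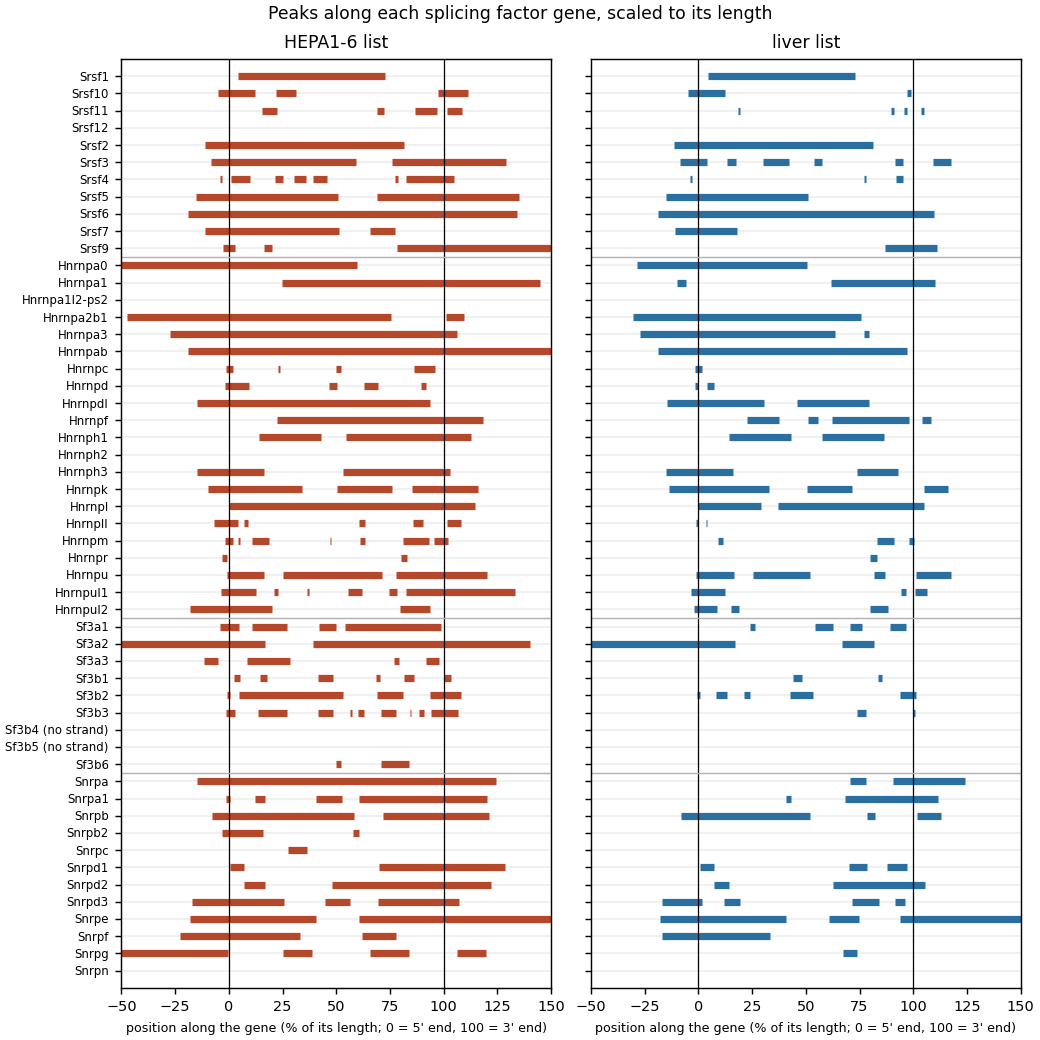
Peaks along each splicing factor gene, with position as a percent of gene length (0 the 5′ end, 100 the 3′ end), in the HEPA1-6 list (left) and the liver list (right), and grey lines between families. Bars that run past the axis are clipped, genes without a strand are left empty, and the single peak of Snrpn, 284 bp in 467683 bp, is too narrow to see. Peaks at Srsf6, Hnrnpab and Hnrnpl span nearly the whole gene in both lists.

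Nearly every liver peak at these genes overlapped a HEPA1-6 peak, while many HEPA1-6 peaks overlapped no liver peak. All 44 members with peaks in both lists had a HEPA1-6 and a liver peak that overlapped, and in 30 of them a pair overlapped by at least 50% of both. The counts of members in this paragraph have no like count over all genes, so only the shares of peaks can be set against the background. Of 99 liver peaks at members, 98 (99.0%) overlapped a HEPA1-6 peak, against 88.9% of liver peaks at all protein-coding genes. Of 134 HEPA1-6 peaks, 73 (54.5%) overlapped a liver peak, against 31.8%. In 38 members a peak began or ended at the same base as a peak of the other list. At Hnrnpf and Snrpg that liver peak lay beyond the 1 kb flank, and the liver peaks counted for these genes shared no edge. An identical interval in both lists was present in 9 members: Hnrnpc, Hnrnph1, Hnrnph3, Hnrnpu, Hnrnpul1, Snrpd1, Srsf10, Srsf2 and Srsf5. Peaks with a shared edge made up 35.1% of HEPA1-6 peaks at members and 17.8% at all genes, and 45.5% of liver peaks at members and 41.1% at all genes, so the liver share was near the background. Identical intervals made up 6.72% against 2.45% in HEPA1-6 and 9.09% against 5.55% in liver. How the authors set the edges of peaks is not given in the sources used here.

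Peaks at members were wide, with medians of 2407.5 bp in HEPA1-6 (227 to 24224 bp) and 1360 bp in liver (234 to 10172 bp). Over all protein-coding genes the medians were 1137 and 957.5 bp. Of the 44 members, 18 had more HEPA1-6 peaks, 12 as many and 14 more liver peaks. Hnrnpa3, Hnrnpl and Hnrnpf are among the latter, each with 1 HEPA1-6 peak that overlapped 2 or more liver peaks. Numbers of peaks per gene were not compared between the lists over all genes.

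Strands of peaks were compared with those of genes whose strand came from the RefSeq start table, leaving out genes whose strand was itself read from peaks. Most peaks had the strand of the gene: 101 of 121 (83.5%) in HEPA1-6, against 87.3% of gene and peak pairs over all genes, and 74 of 87 (85.1%) in liver, against 83.8%. Many peaks on the opposite strand touched another protein-coding gene. In HEPA1-6 this held for 12 of 20 (60.0%) opposite-strand peaks, against 58.1% over all genes, and for 20 of 101 (19.8%) on the same strand, against 12.8%. In liver the counts were 8 of 13 (61.5%), against 62.2%, and 16 of 74 (21.6%), against 17.9%. These shares were near the background on the opposite strand. With a peak but none on their own strand were Hnrnpab, Hnrnpdl, Hnrnpf, Sf3a2, Snrpf, Snrpn and Srsf2 in HEPA1-6 and Hnrnpab, Snrpd2, Srsf2 and Srsf9 in liver. At Hnrnpd, Snrpg and Srsf4 the top HEPA1-6 peak was on the opposite strand, with lower ones on the gene's strand. In liver this held for Hnrnpa1, Hnrnpd, Hnrnph3, Hnrnpl and Srsf4. How a strand was given to a peak is not given in the sources used here, and the part of neighbouring genes in these peaks was not tested.

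Other genes of the splicing machinery held peaks too. Of 84 further genes, 79 (94.0%) were marked in HEPA1-6 and 61 (72.6%) in liver, and 18 held a HEPA1-6 peak only and none a liver peak only. Counts in the HEPA1-6 and liver lists were 29 and 25 of 30 splicing regulators such as Ptbp1, 7 and 6 of 7 genes for recognition of the 3′ splice site, and 9 and 7 of 9 spliceosome helicases. They were 20 and 15 of 22 other snRNP proteins, 5 and 4 of 6 SR protein kinases, and 9 and 4 of 10 factors of the Prp19 complex and the catalytic stage. Sf1, the branch-point binding protein, had the highest liver score of these, 142. More than 50% of the body was covered in 31 (36.9%) in HEPA1-6 and in 9 (10.7%) in liver, where the members had 52.8% and 28.3%. The difference from the members was not tested.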

How the data were processed

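S9.6 immunoprecipitates of HEPA1-6 cells and mouse liver were given as 1 BED list of peaks per source. The score is the authors' own value, deposited per peak with no scale, and depth is not stated. The submitters' processing notes name CASAVA 1.8.2, cutadapt, Bowtie2, bedtools, SAMtools, MACS2 and mm10, with no parameters. Positions are 1-based on GRCm38. RefSeq boundaries (GRCm38.p6) were extended by 1 kb and overlapped by at least 1 bp, in Python 3.11.15 with pandas 2.3.3, numpy 2.4.6 and scipy 1.17.1. Strand came from the RefSeq start table for 47 members and was unknown for Sf3b4 and Sf3b5. For 4 (Snrpb, Hnrnpll, Snrpd1, Hnrnpul2) it came from peaks that overlap the body of that gene and of no other. No exons were used. An end is marked by a peak within 1 kb of it, and covered share is the part of the body under peaks. The members and lists were chosen with earlier results of these data known. Members named in full were 12 fixed ones, the 3 of each family with the lowest sum of score ranks, those with a peak in 1 list, and the 3 most covered per list with ties; some others were named after their values were seen. Start windows were printed in rank order for members with a peak over the start in both lists, and 9 of these, within gene boundaries, were passed over. No test was run. Interval functions were tested on simulated data. Alternatives covered flanks, score limits, midpoints, overlap, strand, shared peaks, gene length and equal list sizes.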

Additional observations from a re-analysis of the deposited data

How the results depend on the processing

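Of 103 alternatives to 18 results, 90 stayed within 1.5 times the count or within the interval of the value, and 13 moved; 4 alternatives, which took strand from the start table only, were chosen after seeing the data. Keeping as many HEPA1-6 peaks as liver peaks, by score, left 3 members with a HEPA1-6 peak only (Sf3a3, Sf3b6 and Snrpn) in place of 5. Keeping only peaks at or above the median score of each list gave 6 (Hnrnpr, Sf3a3, Sf3b1, Snrpd2, Snrpg and Snrpn). The count was alike, but of the 5 only Sf3a3 and Snrpn remained, so these names depend on the score limit. Dropping peaks that touch another protein-coding gene gave 9 with a HEPA1-6 peak only and 4 with a liver peak only (Hnrnpdl, Hnrnpf, Sf3a2 and Snrpa) in place of 0. With peaks on the strand of the gene there were also 4 with a liver peak only (Hnrnpdl, Hnrnpf, Sf3a2 and Snrpf), and with peak midpoints 1 (Hnrnpab). Midpoints also lowered the 5′ end counts to 22 in HEPA1-6 and 18 in liver and the 3′ end counts to 17 and 12, since a wide peak has 1 midpoint. No like counts of ends by midpoint were made over all genes, so the gap to them under that setting is unknown. The counts of members with a peak in 1 list only under these alternatives also have no like count over all genes. The mean of all peaks of a gene in place of the top peak gave median scores of 47.5 and 38.2. No paired analysis was possible because each source has 1 pooled list, and for the same reason no replicate could be left out. The depth of the libraries is unknown, which limits every comparison of the lists: a member without a liver peak is 1 at which none was called, not 1 shown to lack R-loops. Exons, expression and the RNase H1 control were not analysed here.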
